A study of Mus musculus with 20 samples.

Results

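The set described here holds 73 genes of the 47729 in the table of normalised read counts from whole mouse adrenal glands. They were chosen by value: a mean of at least 20 over all 20 libraries, every KO library above every control library within females and again within males, and a difference of at least 0.4 between the KO and control means of log2(value + 1) in each sex. Circadian genes named in the rule (Cry1, Cry2, Npas2, Clock, Per2, Nfil3 and Arntl), 5 other single genes (Lonrf3, Cdkn1a, Crym, Dync1i1 and Clic5) and all names starting Col, Lam, Kcn, Cyp, Ugt or Gst were left out. Of 15569 genes with a mean of at least 20, 415 separated the genotypes in females, 111 of those also in males, and 83 also met both differences, of which 10 were left out by name. Because KO and control values made the list, every difference of a member between genotypes below is a description with no test.

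The study asked what inactivation of BMAL1, the protein of Arntl (also called Bmal1), changes in female and male adrenals. All mice carried the Cre driver labelled SCC::Cre, the controls (SCC::Cre_CTRL) as well as the group labelled BMAL1 KO. SCC is the side-chain cleavage enzyme of steroid synthesis, whose gene Cyp11a1 marks the cells of the cortex that make steroids. Whole glands were sequenced, so the medulla, vessels and capsule, where that promoter is not known to act, are in every library. There were 5 control females aged 1.5 to 3.4 months, 5 KO females aged 2.4 to 3.4 months, 6 control males aged 2.9 to 4.7 months and 4 KO males aged 2.9 to 3.7 months. Nothing in the labels says that libraries of equal age came from separate animals, so p-values measure the spread between these samples, which may be technical. The sources used here give no strain, time of day, exons removed or strand setting of the counting.

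BMAL1 pairs with CLOCK or NPAS2 on E-box sequences and drives its own repressors, the PER and CRY proteins, together with the nuclear receptors REV-ERBα and REV-ERBβ (Nr1d1 and Nr1d2). The REV-ERBs repress genes that carry the RORE sequence, and DBP and its relatives act on D-boxes. In the adrenal cortex this loop is known for the daily rhythm of glucocorticoid output.

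Libraries held between 13421985 and 26742820 recovered reads. Arntl itself was not lower in libraries labelled KO. It averaged 618 ± 147 (SD, n = 5) normalised reads in control and 905 ± 71.8 (n = 5) in KO females, and 663 ± 238 (n = 6) in control and 923 ± 69.8 (n = 4) in KO males. A gene total counts reads from every exon, so it does not check a deletion of some exons, and directions below rest on the labels. Cry1 separated the labelled groups, with a mean of 219 in control and 1798 in KO females, and 153 in control and 1289 in KO males. Markers of the labelled tissue were present: the summed value of 6 genes of cortical steroid cells was at least 497158 in every library and that of 7 chromaffin genes at least 88308.

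The promoters of the members were read from RefSeq on GRCm38.p6, from 250 bases before to 50 bases after each start. There were 64 such windows for 50 of the 73 genes. Both strands were searched for the E-box CACGTG, the RORE core TAGGTCA and the D-box form TTANNTAA, and no matches overlap in the windows shown. The E-box stood in 12.5% of the members' windows (8 of 64, in 8 genes) against 7.15% of 32851 windows of all genes. The RORE core stood in 1.56% (1 window) against 2.61%, and the D-box form in 4.69% (3 windows of 2 genes) against 6.0%. Most windows of the set thus held none of these letters. Shown first are E-box windows of Eif5a2, a translation factor with a pair of matches 142 and 117 bases before the start, of Otud1, a deubiquitinase with 1 match 54 bases before it, and of the kinase gene Pak1 with 1 match 132 bases before it. Then comes the single window with a RORE core, from Leo1 (63 bases before the start). Last is a window of Tox2 whose letters TTAAATAA (130 bases before the start) match the D-box form, in which N is any base. Capitals mark the motif, and each sequence runs 5′ to 3′ along the gene. The windows are chr3:28781027-28781326 on the plus strand, chr2:19657481-19657780 on the plus strand, chr7:97788291-97788590 on the plus strand, chr9:75441274-75441573 on the plus strand and chr2:163225203-163225502 on the plus strand, in that order. A match of letters is not a bound site, and no binding was measured.
Eif5a2: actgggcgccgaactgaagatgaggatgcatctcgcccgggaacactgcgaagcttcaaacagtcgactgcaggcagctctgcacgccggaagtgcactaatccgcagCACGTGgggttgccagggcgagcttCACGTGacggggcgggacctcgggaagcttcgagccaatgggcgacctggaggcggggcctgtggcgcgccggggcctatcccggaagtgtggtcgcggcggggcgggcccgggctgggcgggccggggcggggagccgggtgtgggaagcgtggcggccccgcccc
Otud1: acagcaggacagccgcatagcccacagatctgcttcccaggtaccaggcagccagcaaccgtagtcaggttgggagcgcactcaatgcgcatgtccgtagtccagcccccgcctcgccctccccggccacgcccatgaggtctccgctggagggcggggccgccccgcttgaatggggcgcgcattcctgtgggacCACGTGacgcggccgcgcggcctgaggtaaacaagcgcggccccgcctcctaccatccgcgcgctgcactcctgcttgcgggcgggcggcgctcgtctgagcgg
Pak1: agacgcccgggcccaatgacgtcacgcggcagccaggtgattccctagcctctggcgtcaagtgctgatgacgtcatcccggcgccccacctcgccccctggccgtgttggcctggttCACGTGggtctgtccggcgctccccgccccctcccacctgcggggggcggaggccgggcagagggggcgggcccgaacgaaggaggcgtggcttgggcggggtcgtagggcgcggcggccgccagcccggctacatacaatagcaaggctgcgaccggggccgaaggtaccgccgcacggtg
Leo1: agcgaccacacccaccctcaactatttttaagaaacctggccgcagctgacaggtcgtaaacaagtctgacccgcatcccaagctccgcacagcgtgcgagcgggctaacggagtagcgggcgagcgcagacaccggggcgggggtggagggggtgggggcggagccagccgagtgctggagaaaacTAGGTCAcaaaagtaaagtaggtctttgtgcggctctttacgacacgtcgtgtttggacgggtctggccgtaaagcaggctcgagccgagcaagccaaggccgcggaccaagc
Tox2: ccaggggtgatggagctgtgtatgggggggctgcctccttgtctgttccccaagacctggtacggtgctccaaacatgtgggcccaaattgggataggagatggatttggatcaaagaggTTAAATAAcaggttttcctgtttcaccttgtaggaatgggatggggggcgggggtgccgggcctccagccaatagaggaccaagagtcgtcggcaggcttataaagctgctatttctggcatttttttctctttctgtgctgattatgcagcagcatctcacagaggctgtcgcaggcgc

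Over the 73 genes the difference between KO and control means of log2(value + 1) ran from 0.41 to 3.03 in females, with a median of 0.94, and from 0.43 to 2.12 in males, with a median of 0.81. Over all genes with a mean of at least 20 the medians were 0.001 and -0.006. The measured part of the rule was met by 1.64% of those genes in females, 1.34% in males and 0.533% in both. The difference reached 1 in both sexes for 15 members, in females for 32 and in males for 20. It was larger in females for 46 members and in males for 27, and lay within 0.2 of the other sex for 36. Only Arhgef37 and Gm26903 differed between the sexes by 1 or more, both larger in females. The members span a wide range of abundance, from a mean of 27.3 to 21441 normalised reads with a median of 702.

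As a median over the members, each KO female stood between 0.79 and 0.94 above the mean of the control females and each KO male between 0.69 and 0.94 above the mean of the control males. Single control libraries stood between -0.12 and 0.10 of their own mean. Within the KO males, library 1 was the highest for 35 of the 73 members, library 2 was the lowest for 24 and library 4 the lowest for 22. In a whole gland, more cells of a type and more RNA per cell cannot be told apart.

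**Figure D1:**
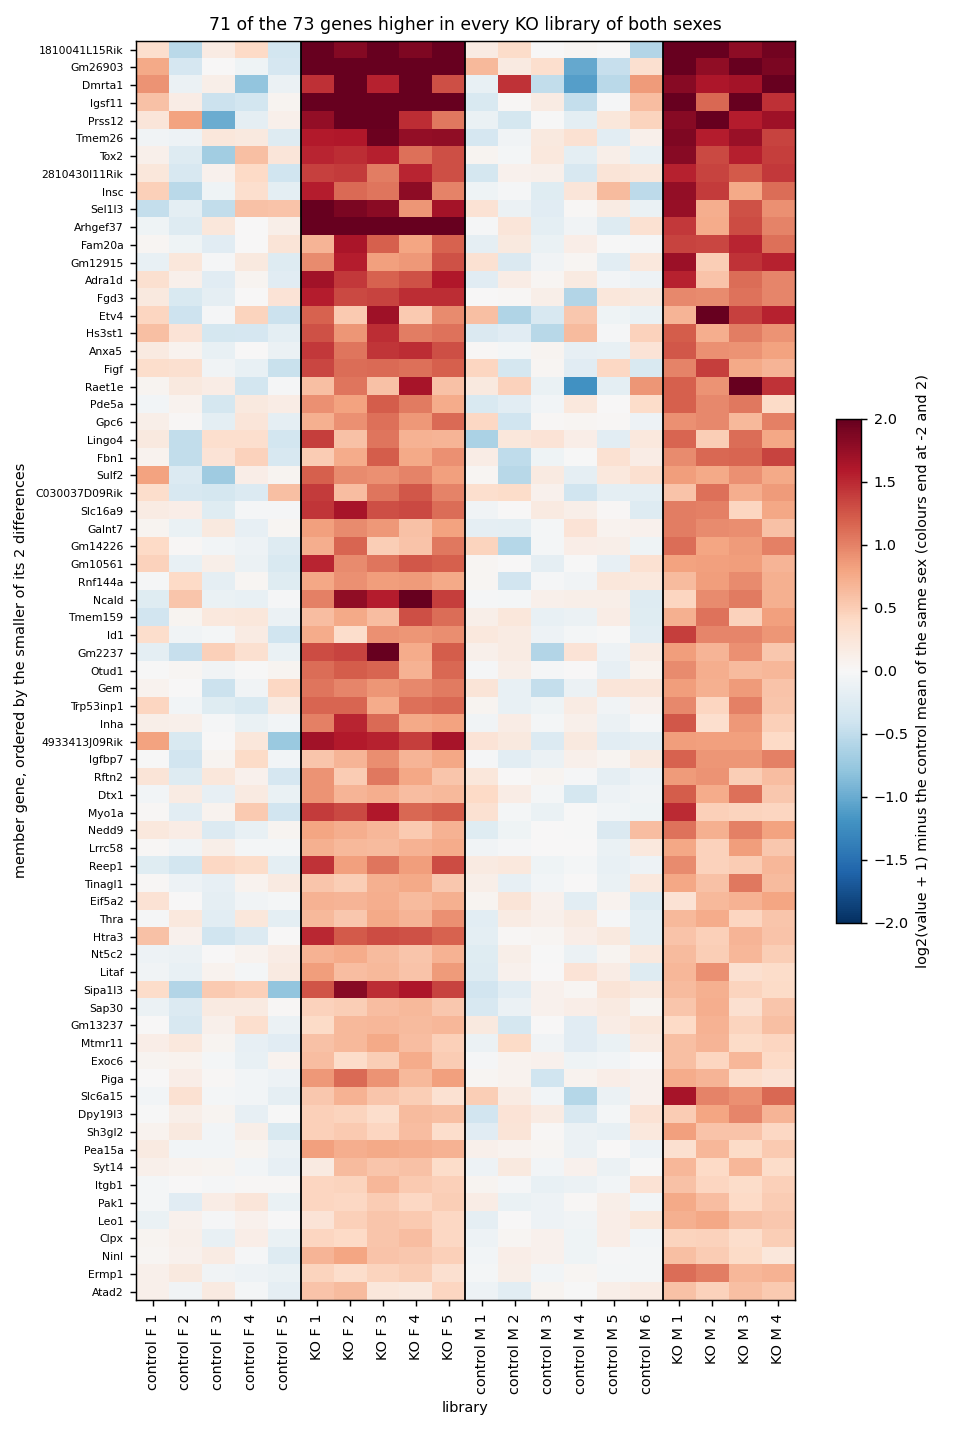
Log2(value + 1) of 71 of the 73 genes (rows) in each of the 20 libraries (columns), as the difference from the mean of the control libraries of the same sex, on a colour scale. KO libraries are on the higher side of the scale in every row because the rule required it, while the depth of colour differs between rows and between the 4 KO males.

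**Figure D2:**
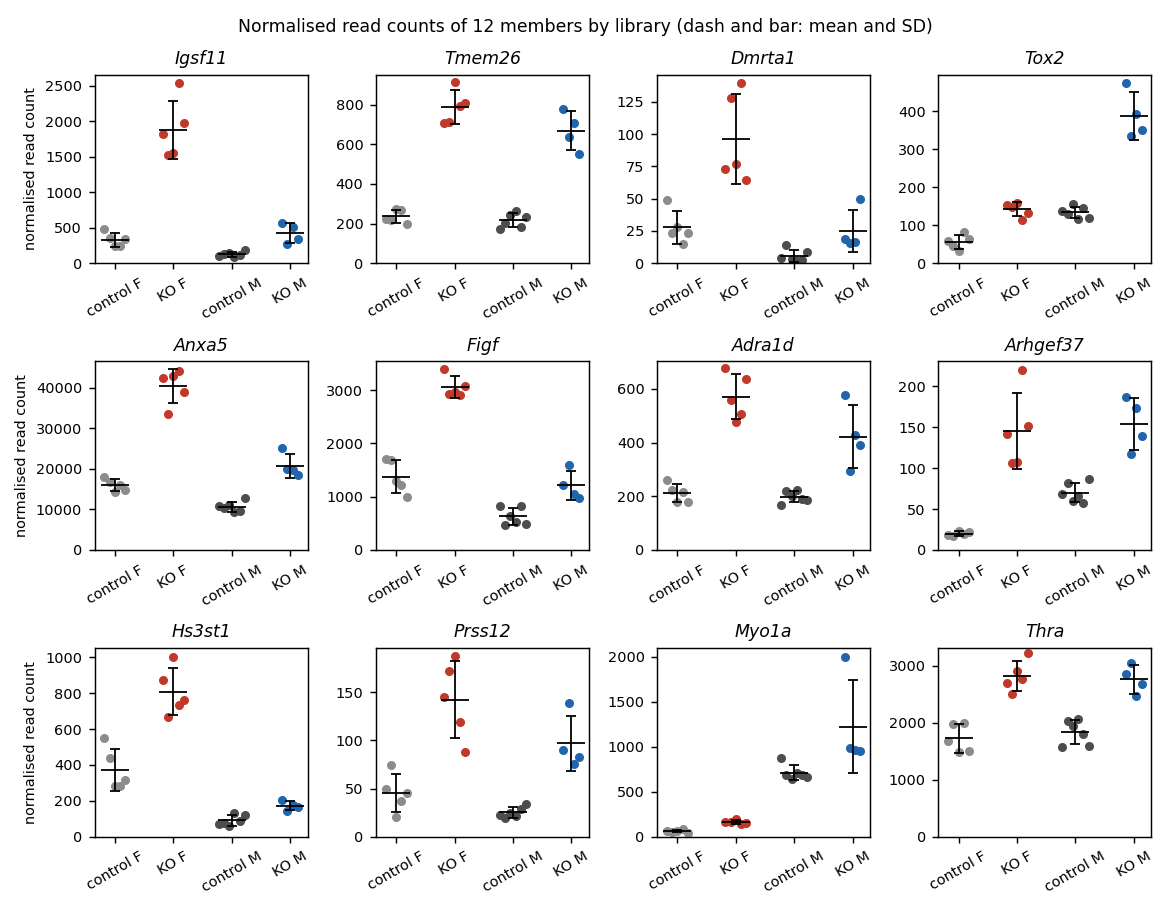
Normalised read count of 12 members, on linear axes starting at 0, with 1 point per library, the 4 groups side by side, and the mean and SD of each group. Within each sex no KO point lies below a control point, and Hs3st1 and Igsf11 lie higher in females than in males in both genotypes.

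The rule's limits cut through a continuous range. Atad2 (0.41), Ermp1 (0.41) and Ninl (0.43) had the smallest qualifying differences, and Rbms3 (0.40, just short of the limit before rounding), Id2 (0.40, likewise) and Slc20a2 (0.38) fell just outside. Raet1e (27.3), Lingo4 (30.4) and Etv4 (32.2) had the lowest means, with Cntn4 (17.5), Nlrp10 (9.96) and Il24 (3.83) as the nearest genes below the limit of 20. The gap between the lowest KO and the highest control library was 0.001 on the log2 scale for Id1, 0.002 for Mtmr11 and 0.003 for Slc6a15. For Lrrn4, Glipr2 and Mboat1 the libraries gave a gap of -0.006, -0.008 and -0.012, an overlap, so these 3 are not members.

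Of the 73, 66 are annotated as protein coding. For reading, the members were sorted by role by hand after their values were known. Transcription and chromatin factors make up 10, with a median difference of 0.74 in females and 0.98 in males. Tox2 (chr2:163203125-163324170) encodes an HMG-box protein. Tox2 read 57.2, 44.3, 32.4, 81.5 and 62.8 in control females 1 to 5 and 154, 149, 158, 114 and 131 in KO females 1 to 5. In males, Tox2 ran from 115 through a median of 134 to 155 in the 6 controls and read 474, 335, 393 and 349.7 in KO males 1 to 4. Males were higher than females in both genotypes, and the KO difference was 1.39 ± 0.18 in females and 1.53 ± 0.19 in males (SE of the fit). Dmrta1 (chr4:89679436-89694772) encodes a DM-domain factor of the family named for sexual differentiation. Dmrta1 read 48.9, 23.7, 27.9, 14.5 and 23.7 in control females 1 to 5 and 72.9, 128, 76.5, 139 and 64.4 in KO females 1 to 5. In males, Dmrta1 ran from 1.54 through a median of 3.41 to 13.8 in the 6 controls and read 18.3, 15.8, 16.3 and 49.6 in KO males 1 to 4. Its difference was 1.79 ± 0.44 in females and 2.08 ± 0.45 in males, on values low enough in control males (some of them 3 recovered reads or fewer) that the log2(value + 1) scale understates it. KO male 4 carried 49.6, far above the other KO males.

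Etv4 (chr11:101769742-101785371) encodes an ETS factor. Etv4 read 32.2, 17.5, 23.4, 32.6 and 17.5 in control females 1 to 5 and 55.1, 34.6, 79.2, 34.8 and 46.9 in KO females 1 to 5. In males, Etv4 ran from 9.22 through a median of 13.5 to 22.7 in the 6 controls and read 23.9, 71.4, 39.1 and 44.3 in KO males 1 to 4. The female groups come within a few reads of each other, and the difference was 0.98 ± 0.32 in females and 1.45 ± 0.32 in males. Thra (chr11:98740638-98769006) encodes thyroid hormone receptor α. Thra read 1687, 1988, 1483, 2002 and 1501 in control females 1 to 5 and 2700.2, 2502, 2915, 2763 and 3223 in KO females 1 to 5. In males, Thra ran from 1578 through a median of 1874 to 2067 in the 6 controls and read 2861, 3059, 2467 and 2681 in KO males 1 to 4. Its difference was 0.71 ± 0.10 in females and 0.59 ± 0.10 in males. The end of Thra overlaps Nr1d1 on the other strand, and reads of the pair cannot be told apart without strand. Nr1d1 moved the opposite way: as a share of the Thra value its median was 172% in control and 7.65% in KO females, and 107% in control and 11.4% in KO males.

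Others of this group followed. Id1, a helix-loop-helix protein that blocks E-box binding factors of its class, differed by 0.77 in females and 1.06 in males, and Atad2, a bromodomain protein, by 0.41 in females and 0.54 in males. Sap30 belongs to the SIN3 deacetylase complex, Leo1 to the PAF1 elongation complex, and Dtx1 is an E3 ligase of the Notch pathway. Their differences, given here and below with the female value first and the male value second, were 0.55 and 0.54 for Sap30, 0.45 and 0.65 for Leo1 and 0.71 and 0.90 for Dtx1.

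Cell-surface, matrix, glycan and secreted products were the most numerous, with 19 members and a median difference of 0.95 in females and 0.89 in males. Igsf11 (chr16:38892671-39027159) encodes an adhesion molecule of the immunoglobulin superfamily. Igsf11 read 485, 355, 238, 248 and 334 in control females 1 to 5 and 1815, 1529, 1557, 2536 and 1976 in KO females 1 to 5. In males, Igsf11 ran from 87.7 through a median of 123 to 189 in the 6 controls and read 571, 274, 504 and 339.98 in KO males 1 to 4. Its difference was 2.52 ± 0.23 in females and 1.71 ± 0.23 in males, and the KO females, at the highest level, lay far from the KO males. Prss12 (chr3:123446913-123506597) encodes neurotrypsin, a secreted serine protease. Prss12 read 49.9, 74.2, 20.7, 37.1 and 45.3 in control females 1 to 5 and 145, 172, 187, 119 and 88.3 in KO females 1 to 5. In males, Prss12 ran from 19.4 through a median of 23.8 to 34.2 in the 6 controls and read 90.1, 139, 76.0 and 83.1 in KO males 1 to 4. The difference was 1.69 ± 0.28 in females and 1.88 ± 0.28 in males. Hs3st1 (chr5:39613935-39755475) encodes a 3-O-sulfotransferase of heparan sulfate. Hs3st1 read 548, 437, 281, 283 and 315 in control females 1 to 5 and 875, 665, 1002, 735 and 764 in KO females 1 to 5. In males, Hs3st1 ran from 59.2 through a median of 80.4 to 135 in the 6 controls and read 204, 145, 179 and 164 in KO males 1 to 4. The KO males stayed below every control female, and the difference was 1.15 ± 0.21 in females and 0.97 ± 0.22 in males.

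Fam20a (chr11:109669749-109722279) encodes the pseudokinase partner of the secretory kinase FAM20C. Fam20a read 41.6, 38.1, 34.2, 40.8 and 48.4 in control females 1 to 5 and 65.4, 128, 93.6, 70.7 and 92.9 in KO females 1 to 5. In males, Fam20a ran from 83.0 through a median of 93.1 to 107 in the 6 controls and read 241, 239, 273 and 202 in KO males 1 to 4. It differed by 1.10 ± 0.16 in females and 1.33 ± 0.16 in males. Figf (chrX:164373378-164402650) encodes the growth factor VEGF-D, a ligand for receptors of lymphatic and blood vessels. Figf read 1716, 1681, 1290.1, 1219 and 987 in control females 1 to 5 and 3394, 2936, 2974, 2907 and 3082 in KO females 1 to 5. In males, Figf ran from 479 through a median of 579 to 826 in the 6 controls and read 1227, 1594, 1043 and 983 in KO males 1 to 4. It differed by 1.18 ± 0.17 in females and 0.95 ± 0.17 in males, and the KO males lay in about the range of the control females. Adra1d (chr2:131545850-131562283) encodes the α1D-adrenergic receptor, which responds to noradrenaline and adrenaline. Adra1d read 261, 224, 178, 217 and 178 in control females 1 to 5 and 676, 559, 475, 507 and 635 in KO females 1 to 5. In males, Adra1d ran from 169 through a median of 196 to 225 in the 6 controls and read 575, 293, 429 and 391 in KO males 1 to 4. It differed by 1.43 ± 0.15 in females and 1.05 ± 0.15 in males.

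Htra3, a secreted serine protease, differed by 1.30 in females and 0.57 in males. Raet1e, a ligand of the NKG2D receptor, differed by 0.90 in females and 1.38 in males, and its exons overlap Raet1d and H60b on the same strand, so its value is uncertain. Other members of the heparan sulfate proteins were Sulf2, which removes 6-O-sulfates, and the glypican Gpc6. These differed by 0.97 and 0.82 for Sulf2 and 0.95 and 0.88 for Gpc6. Matrix and adhesion members comprised fibrillin-1 (Fbn1), Tinagl1, the secreted Igfbp7 and integrin β1 (Itgb1), with differences of 0.82 and 1.15 for Fbn1, 0.61 and 0.76 for Tinagl1, 0.72 and 0.99 for Igfbp7 and 0.51 and 0.46 for Itgb1. Enzymes of protein glycosylation and lipid anchoring were Galnt7 for O-glycans, Dpy19l3 for C-mannose and Piga for the GPI anchor. They differed by 0.81 and 0.87 for Galnt7, 0.50 and 0.74 for Dpy19l3 and 0.87 and 0.52 for Piga. Inhibin α (Inha), a secreted antagonist of activin, and the leucine-rich repeat protein gene Lingo4 complete the group, at 1.05 and 0.73 for Inha and 0.88 and 0.89 for Lingo4.

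The 9 members that act on small GTPases or the cytoskeleton had a median difference of 1.31 in females and 0.74 in males. These medians lay further apart than in the other role groups. Gene by gene, the female difference minus the male one ran from -0.23 for Nedd9 to 1.64 for Arhgef37. The male difference was the larger one for Pak1 and Nedd9 alone. Arhgef37 (chr18:61491657-61536594) encodes a member of a family of guanine nucleotide exchange factors. Arhgef37 read 18.7, 16.5, 23.4, 19.9 and 21.6 in control females 1 to 5 and 141, 106, 107, 219.98 and 152 in KO females 1 to 5. In males, Arhgef37 ran from 57.7 through a median of 67.2 to 86.1 in the 6 controls and read 187, 117, 173 and 139 in KO males 1 to 4. Control females were the low group, and KO females and KO males overlapped. Its difference was 2.75 ± 0.20 in females and 1.12 ± 0.20 in males. Whether the female and male differences differ was not tested, because the same values chose the gene. Fgd3 (chr13:49261554-49320311) encodes an exchange factor of the FGD family, which acts on CDC42. Fgd3 read 238, 169, 185, 210.1 and 252 in control females 1 to 5 and 622, 523, 533, 580.2 and 584 in KO females 1 to 5. In males, Fgd3 ran from 134 through a median of 211 to 235 in the 6 controls and read 391, 388, 429 and 396 in KO males 1 to 4. It differed by 1.44 ± 0.13 in females and 0.99 ± 0.14 in males, and control male 4 was the lowest control.

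Myo1a encodes a class I myosin known from the intestinal brush border. Myo1a read 64.5, 54.6, 66.6, 91.5 and 48.4 in control females 1 to 5 and 169, 160.5, 194, 141 and 149 in KO females 1 to 5. In males, Myo1a ran from 648 through a median of 688 to 878 in the 6 controls and read 1998, 984, 964 and 956 in KO males 1 to 4. Males held several times the female value in both genotypes. Its difference was 1.33 ± 0.18 in females and 0.71 ± 0.19 in males, and the male value was 0.45 without KO male 1, which alone reached 1998. Insc (chr7:114743694-114850383) encodes inscuteable, which orients the mitotic spindle. Insc read 124, 60.8, 83.7, 112 and 77.2 in control females 1 to 5 and 266, 195, 188, 309.8 and 178 in KO females 1 to 5. In males, Insc ran from 18.8 through a median of 26.2 to 43.1 in the 6 controls and read 94.8, 73.3, 46.7 and 60.4 in KO males 1 to 4. It differed by 1.31 ± 0.24 in females and 1.26 ± 0.25 in males. The others were the RGK GTPase gene Gem, the kinase gene Pak1, Sipa1l3 of a family of Rap GTPase activators, the scaffold gene Nedd9 and the centrosomal gene Ninl. They differed by 0.98 and 0.74 for Gem, 0.45 and 0.57 for Pak1, 1.51 and 0.54 for Sipa1l3, 0.68 and 0.90 for Nedd9 and 0.61 and 0.43 for Ninl.

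Membrane, trafficking and transport genes numbered 14, with a median difference of 0.75 in females and 0.74 in males. Tmem26 (chr10:68723646-68782650) encodes a membrane protein used as a marker of beige fat cells. Tmem26 read 223, 217, 275, 269 and 197 in control females 1 to 5 and 707, 715, 916, 795 and 807 in KO females 1 to 5. In males, Tmem26 ran from 169.98 through a median of 218 to 265 in the 6 controls and read 781, 635, 710.3 and 549 in KO males 1 to 4. It differed by 1.74 ± 0.13 in females and 1.63 ± 0.13 in males, and the KO libraries of both sexes lay above all controls. Anxa5 (chr3:36448923-36475894) encodes annexin A5, which binds phosphatidylserine in membranes. Anxa5 read 18038, 16763, 14354, 16045 and 14735 in control females 1 to 5 and 42331, 33593, 43010.4, 44243 and 38956 in KO females 1 to 5. In males, Anxa5 ran from 9441 through a median of 10498 to 12844 in the 6 controls and read 25018, 19866, 19675 and 18406 in KO males 1 to 4. It differed by 1.34 ± 0.10 in females and 0.96 ± 0.10 in males at one of the highest levels of the set.

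Tmem159, which encodes a lipid droplet assembly factor, averaged 2954 ± 495 (SD, n = 5) in control and 5478 ± 1200.3 (n = 5) in KO females, and 4823 ± 633 (n = 6) in control and 8257 ± 1517 (n = 4) in KO males. Slc6a15, a carrier of neutral amino acids, had the largest lead of the male difference over the female one, at 0.52 in females and 1.18 in males. Slc16a9 belongs to the monocarboxylate carrier family and Ncald is a neuronal calcium sensor. Rftn2 encodes a lipid raft protein, Exoc6 a subunit of the exocyst, Syt14 a synaptotagmin, Sh3gl2 the endophilin A1 of endocytosis and Reep1 a shaper of endoplasmic reticulum. These genes differed by 1.36 and 0.81 for Slc16a9, 1.56 and 0.78 for Ncald, 0.76 and 0.71 for Rftn2, 0.55 and 0.52 for Exoc6, 0.46 and 0.52 for Syt14, 0.48 and 0.59 for Sh3gl2 and 1.09 and 0.64 for Reep1. Litaf encodes a late endosomal protein and Mtmr11 a member of the myotubularin family, with differences of 0.71 and 0.56 for Litaf and 0.62 and 0.53 for Mtmr11.

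The remaining 11 genes with a descriptive name mix enzymes and regulators, with a median difference of 0.74 in both sexes. Sel1l3 (chr5:53107083-53213927) led them. Sel1l3 read 44.7, 54.6, 44.1, 94.2 and 93.6 in control females 1 to 5 and 356, 233, 221, 117 and 201 in KO females 1 to 5. In males, Sel1l3 ran from 112 through a median of 126 to 160.1 in the 6 controls and read 437, 216, 315 and 245 in KO males 1 to 4. It differed by 1.75 ± 0.26 in females and 1.16 ± 0.27 in males. Trp53inp1 encodes a stress protein induced by p53. Trp53inp1 read 3949, 2828, 2468, 2382 and 3304 in control females 1 to 5 and 6577, 6564, 4889.6, 6274 and 6484 in KO females 1 to 5. In males, Trp53inp1 ran from 2332 through a median of 2556 to 2881 in the 6 controls and read 4989, 3463, 5195 and 3764 in KO males 1 to 4. It differed by 1.06 ± 0.13 in females and 0.74 ± 0.14 in males, with KO female 3 the lowest KO female. Pde5a breaks down cyclic GMP, the cytosolic nucleotidase gene Nt5c2 acts on purine nucleotides, Clpx encodes the chaperone subunit of a mitochondrial protease and Ermp1 a peptidase of the endoplasmic reticulum. Their differences were 0.94 and 0.90 for Pde5a, 0.66 and 0.57 for Nt5c2, 0.49 and 0.43 for Clpx and 0.41 and 0.87 for Ermp1. The ubiquitin ligase gene Rnf144a, the deubiquitinase gene Otud1, the translation factor gene Eif5a2, the ERK-binding Pea15a and Lrrc58 complete them, at 0.83 and 0.78 for Rnf144a, 1.07 and 0.74 for Otud1, 0.69 and 0.61 for Eif5a2, 0.74 and 0.47 for Pea15a and 0.68 and 0.65 for Lrrc58.

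Genes known only by a clone or model name were 10, and 4 of them stand among the 20 members ranked highest by the smaller of the female and male differences. 1810041L15Rik (chr15:84379203-84447097), a protein-coding gene that GENCODE M21 calls Shisal1, led the whole set by that measure. 1810041L15Rik read 106, 57.7, 93.6, 111 and 64.8 in control females 1 to 5 and 405, 302, 390.4, 308 and 367 in KO females 1 to 5. In males, 1810041L15Rik ran from 47.5 through a median of 73.2 to 93.1 in the 6 controls and read 297, 487, 251 and 278 in KO males 1 to 4. It differed by 2.06 ± 0.21 in females and 2.12 ± 0.21 in males, and female and male libraries overlapped within each genotype. Gm26903 (chr9:75897843-76015192) had the largest female difference. Gm26903 read 18.7, 8.24, 10.8, 9.96 and 8.23 in control females 1 to 5 and 89.7, 79.8, 63.9, 136 and 119.6 in KO females 1 to 5. In males, Gm26903 ran from 4.62 through a median of 12.6 to 16.8 in the 6 controls and read 54.2, 38.0, 48.9 and 41.0 in KO males 1 to 4. It differed by 3.03 ± 0.31 in females and 2.01 ± 0.31 in males. Its exons overlap those of Bmp5, which differed by 1.23 in females and 1.53 in males, and of Hmgcll1, which differed by 0.24 in females and 0.07 in males, both on the other strand.

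2810430I11Rik averaged 25.2 ± 6.07 (n = 5) in control and 63.5 ± 7.96 (n = 5) in KO females, and 33.4 ± 6.03 (n = 6) in control and 87.8 ± 8.29 (n = 4) in KO males. It overlaps Col5a1 on the other strand, whose mean value of 2049.9 is far larger and which differed by 0.51 in females and 0.82 in males. Gm12915 averaged 17.5 ± 2.69 (n = 5) in control and 39.1 ± 9.42 (n = 5) in KO females, and 37.6 ± 6.26 (n = 6) in control and 97.6 ± 31.1 (n = 4) in KO males. It overlaps Inpp5b on the other strand, which differed by 0.07 in females and -0.07 in males. The other 6 genes of this kind differed by 0.60 to 1.57 in females and by 0.53 to 0.94 in males, at means of 58.5 to 602. In all, 27 members overlap an exon of another gene, and for 13 that gene has a mean of at least 20. How much of a member's value came from its partner was not tested.

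Per kilobase of exon, as a level on a linear scale, the most abundant members were Igfbp7 at 15084, Anxa5 at 12066, Itgb1 at 2930, Tmem159 at 2653 and Id1 at 1144 normalised reads per kilobase. The median member stood at 146, and 30 of the 73 were under 100. Of the most abundant, Igfbp7 differed by 0.72 in females and 0.99 in males and Itgb1 by 0.51 in females and 0.46 in males.

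**Figure D3:**
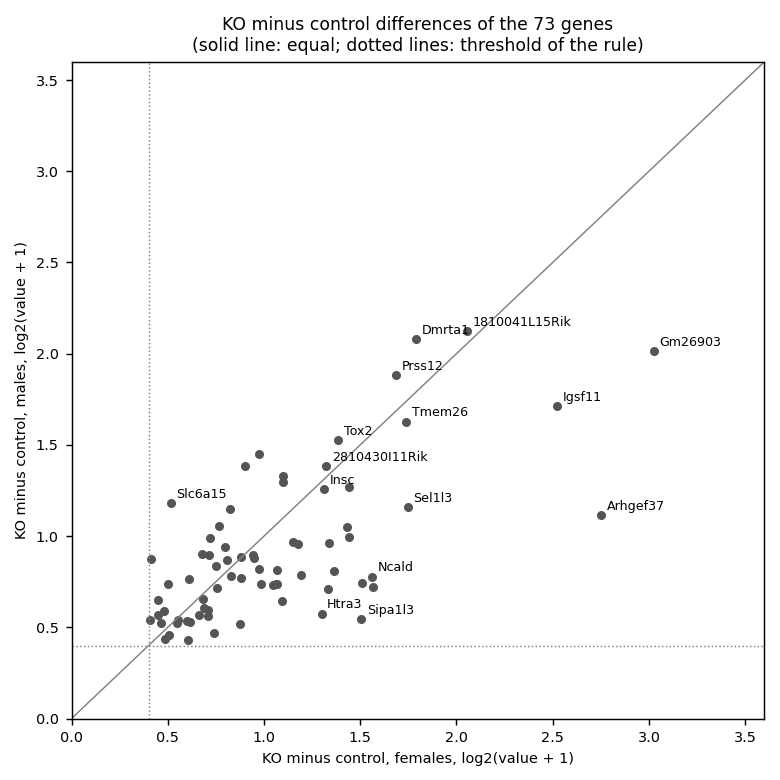
Difference between KO and control means of log2(value + 1) in females (x axis) and in males (y axis), 1 point per member, with the limit of 0.4 and the line of equal difference. For 36 members the differences lie within 0.2 of each other, and Arhgef37 and Gm26903 lie 1 or more to the female side of it.

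The rule compared genotypes within each sex and took a mean over both sexes, but did not compare females with males. That comparison was tested with limma over all 26612 genes, with Benjamini-Hochberg adjustment over them. In control libraries 46 of the 73 members (63.0%) differed between females and males at an adjusted p under 0.05, 25 higher in females (against 13.5% of all genes) and 21 higher in males (against 12.9%). In all, the share was 26.4% of all genes tested and 37.2% of those with a mean of at least 20, a background added after seeing the data, where 20.7% were higher in females and 16.5% in males. Neither background was matched in level to the members, whose median was 702 normalised reads. In KO libraries 42 members (57.5%) differed, 27 higher in females and 15 higher in males, against 22.8% of all genes (12.1% and 10.6%) and 32.7% of those with a mean of at least 20 (18.8% and 13.9%). The median SD within groups was 0.22 on the log2 scale for members and 0.21 for genes with a mean of at least 20. Whether the way members were chosen bears on these shares was not tested. The female and male libraries did not overlap for 30 members in controls (41.1%, against 20.7% of genes with a mean of at least 20) and for 39 in KO (53.4%, against 29.7%). Dmrta1 and Raet1e passed the limit of 20 only through the females, with male means of 13.4 and 15.6, so a higher female value was in part set by the choice. Among the 71 members with a mean of at least 20 in each sex, a check added after seeing the data, 44 differed by sex in controls (62.0%, against 36.6% of such genes) and 40 in KO (56.3%, against 32.2%). Control females were aged 1.5 to 3.4 months and control males 2.9 to 4.7, so sex and age are partly mixed there. With age as a covariate, 32 of the 46 members called in controls were still called.

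A difference was called in both genotypes for 31 members, each in the same direction in both, 19 higher in females and 12 higher in males. That holds for nearly all genes: of 3906 with a mean of at least 20 that were called in both, 3904 had the same direction. For 24 of the 31 members, 14 higher in females and 10 in males, the call held in both genotypes under every alternative run. The 19 include Dmrta1 and Raet1e, and the 14 include Dmrta1. Both genes passed the limit of 20 only through the females, so their higher female value was in part set by the choice. Another 15 were called in controls alone and 11 in KO alone. Whether the sex difference itself changed with genotype was not tested. For 16 members neither test passed, among them 1810041L15Rik, Tmem26, Etv4 and Thra.

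Myo1a had the largest sex difference: female minus male was -3.46 ± 0.17 in controls (limma, adjusted p = 1.31e-11) and -2.83 ± 0.19 in KO libraries (adjusted p = 1.06e-09). Male libraries held the higher value in every case. Dmrta1 stood higher in females by 2.29 ± 0.42 in controls and 2.0 ± 0.47 in KO, given with no p because the females alone carried it past the limit of the rule. Hs3st1 was higher in females, by 2.03 ± 0.20 in controls (limma, adjusted p = 2.45e-07) and 2.21 ± 0.23 in KO (adjusted p = 3.46e-07). Insc followed, at 1.66 ± 0.23 in controls (limma, adjusted p = 1.64e-05) and 1.72 ± 0.26 in KO (adjusted p = 4.71e-05). Arhgef37 was higher in males in controls, with female minus male at -1.75 ± 0.19 (limma, adjusted p = 5.79e-07), while in KO the difference was -0.11 ± 0.21 (adjusted p = 0.747).

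Other members called higher in females in both genotypes included the adhesion gene Igsf11, the VEGF-D gene Figf, Nedd9, Igfbp7, Itgb1 and Anxa5. Given as female minus male in controls and then in KO, the values were 1.38 and 2.19 for Igsf11, 1.14 and 1.36 for Figf, 0.99 and 0.76 for Nedd9, 0.78 and 0.51 for Igfbp7, 0.61 and 0.66 for Itgb1 and 0.59 and 0.97 for Anxa5. Called higher in males in both were, among others, Htra3, Tox2, Inha, Fam20a, Sulf2, Tmem159 and Pde5a. On the same scale the values were -1.63 and -0.91 for Htra3, -1.31 and -1.45 for Tox2, -1.29 and -0.97 for Inha, -1.20 and -1.43 for Fam20a, -1.19 and -1.04 for Sulf2, -0.71 and -0.60 for Tmem159 and -0.66 and -0.62 for Pde5a.

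**Figure D4:**
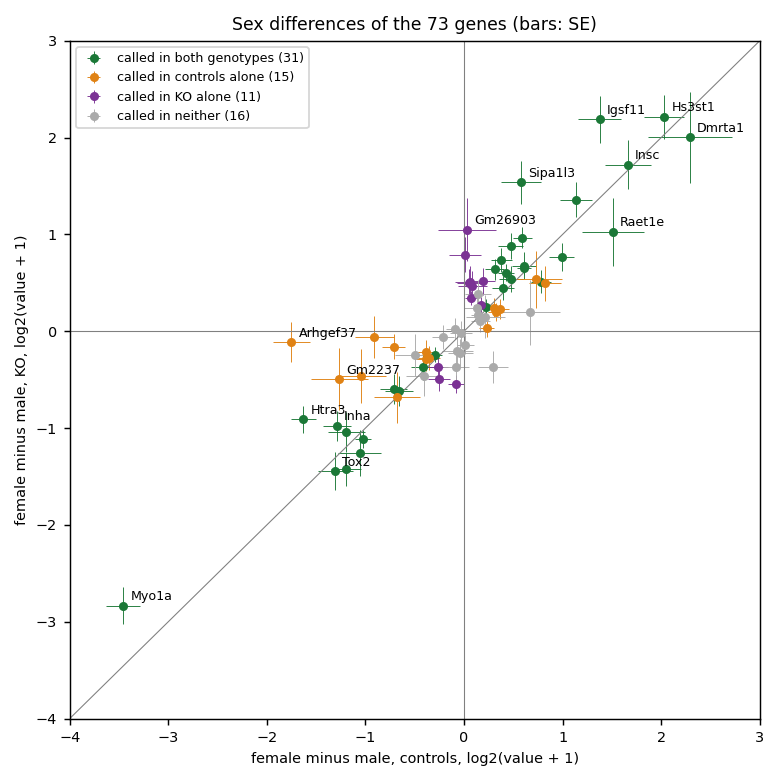
Female minus male difference of log2(value + 1) in control libraries (x axis) and in KO libraries (y axis), 1 point per member, coloured by whether the limma test passed in controls, in KO, in both or in neither, with bars of 1 SE. Many points lie near the line of equal difference from Myo1a at the male end to Hs3st1 and Dmrta1 at the female end, and Arhgef37, Gm26903, Sipa1l3 and Igsf11 are among those off it.

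Age was tested as a slope within groups over 1.5 to 4.7 months. None of the 73 members passed (limma, lowest adjusted p = 0.63), none passed with edgeR or DESeq2 on recovered reads, and 10 had an unadjusted p under 0.05. Of all 26612 genes, 0 passed with limma, 40 with DESeq2 and 0 with edgeR, and 1939 had an unadjusted p under 0.05. Slopes of members ran from -0.17 to 0.36 per month on the log2 scale with a median of 0.01, and 39 were above 0. Ages overlap between groups but do not match. KO females lack the youngest ages of the control females, and control males reach older ages than control females.

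Clock and pathway lists place the set among other genes. In limma's KO test, which shares its values with the rule, 467 of 26612 genes (1.75%) were called in females, 298 (1.12%) higher and 169 (0.635%) lower in KO. In males 354 (1.33%) were called, 203 (0.763%) higher and 151 (0.567%) lower. Genes that met the measured part of the rule are left out of the counts that follow, since their values fixed the outcome. Among them are Crym on the thyroid hormone list and Cry1, Npas2, Cry2 and Per2 on the clock list. The shares over all genes just given still include such genes, so they are not like for like with the list counts. Of 8 other genes tested on the thyroid hormone list, where Thra is a member, 1 rose in females (Thrb, by 0.61, at -0.27 in males), and 0 rose in males or fell in either sex. Of 22 other known REV-ERB repressed genes, 1 rose in females (Nfil3), 1 in males (Clock) and 0 fell. Of 17 other p53 targets, where Trp53inp1 is a member, 2 rose in females (Cdkn1a and Eda2r), 1 in males (Cdkn1a) and 0 fell. Of 21 other clock genes, 1 rose in each sex (Nfil3 in females and Clock in males) and 5 fell in each, namely Per3, Nr1d1, Nr1d2, Dbp and Bhlhe41. The lists were chosen with earlier results known, so they are context and not support. No member was on the cholesterol synthesis list, where 1 of 20 rose in females and 0 in males, on the cyclic AMP list, where 1 of 18 rose and 1 fell in females and 0 changed in males, or on the PIM and NF-κB list, where 1 of 12 rose in each sex and 1 fell in males.

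No member was on a list of cell type markers. Of 7 chromaffin, 6 endothelial, 6 Schwann and sustentacular, 6 lymphocyte, 5 adipocyte, 6 capsule and fibroblast and 3 red blood cell markers, 0 passed the limma test between genotypes in either sex. Of 7 macrophage markers only Mrc1 passed, at -0.59 in females. Of the 6 markers of cortical steroid cells, Cyp11a1 and Star passed in males, at -0.71 and -0.69 in KO minus control. In females these genes did not pass, at -0.19 for Cyp11a1 (limma, adjusted p = 0.727) and -0.53 for Star (limma, adjusted p = 0.0815). The summed value of those 6 ran from 610382 to 938884 in control males and from 497158 to 685338 in KO males, and from 757319 to 945941 in control and 675091 to 855294 in KO females. The summed macrophage value ran from 7446 to 29803 in control and 9448 to 15797 in KO females. No defining marker was at 3 reads or fewer in all libraries. The part of these differences in the members' values was not tested.

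Position was also examined: Arntl lies at chr7:113207465-113314126. Insc lies 1.43 Mb from Arntl, Tmem159 6.79 Mb and Pak1 15.3 Mb, so 3 of the 73 members (4.11%) lie within 20 Mb, against 365 of 15524 genes with a mean of at least 20 (2.35%). Whether this position bears on their values was not tested. Chromosome 7 as a whole held 5 members (6.85%) against 7.78% of genes. Some members are close neighbours: Rftn2 and Gm10561 overlap on opposite strands, Figf and Piga lie 17137 bases apart and Sap30 and Galnt7 35968. Over 209 genes flanking the members the median difference was 0.07 in females and 0.03 in males, and 1 (0.478%) met the measured part of the rule.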

How the data were processed

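Per the labels' protocols, a Direct-zol kit was used for RNA of whole adrenals and a TruSeq RNA kit for libraries. Per the submitters' processing notes the tools were FastQC, MultiQC, Salmon, featureCounts and DESeq2, on the builds GRCm38 and mm10, with versions and roles not given in the sources used here. Deposited by the authors was 1 normalised signal value per gene and library. In each library 100% of positive values were whole multiples of 1 step (tolerance 0.001 reads), so the signal is a read count divided by 1 size factor, and the recovered reads give the depth. Values are called normalised reads here, and 0 columns had no sample. Identifiers were looked up in GENCODE M21, where 47310 were found and 419 were not.

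The members, roles and gene lists were chosen with earlier results of these data known. limma-trend (limma 3.58.1, R 4.3.3) took log2(value + 1) of the 26612 genes that reached a value of 1 in 4 or more libraries, and the model had a mean for each group over all 20 libraries. Called means a Benjamini-Hochberg adjusted p under 0.05 over all genes tested, two-sided. The log2(value + 1) scale understates changes of low genes. Contrasts were female minus male in controls and in KO, an age slope, and KO minus control, which is given for members without a test. edgeR 4.0.16 and DESeq2 1.42.0 were run on recovered reads as alternatives, and the fit was tested on simulated data. Named by rule with values (per library, as group means or as differences) were the 20 members with the largest smaller difference of both sexes, members within 20 Mb of Arntl, the 5 members with the largest sex difference called in controls, genes at the limits of the rule and members on a list. Of the other members, 6 with no descriptive name are given by their range and the rest by their differences, and 2 members are not reported here. Depth per library limits the precision of the lowest members to a few reads, and 3 reads were taken as the floor, which covers counting error only. No library was found to be a copy of another.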

Additional observations from a re-analysis of the deposited data

Results flagged for a closer look

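In 136 groups of 4 to 6 libraries, for the 34 genes named by a fixed rule, the highest or lowest library was compared with the nearest other library. It stood apart by Dixon's 95% critical value in 8 of them, and chance alone flags about 1 group in 20. For Myo1a, KO male 1 read 1998 against 984 in the next library, and control male 1 read 878 against 705. Id1 was likewise highest in KO male 1, at 2535 against 1916. Dmrta1 read 49.6 in KO male 4 against 18.3 in the next KO male. The antisense gene Gm26903 read 18.7 in control female 1 against 10.8, and Slc6a15 read 598 in control female 2 against 473. At the low end, Fgd3 read 134 in control male 4 against 203, and Trp53inp1 read 4890 in KO female 3 against 6274.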

How the results depend on the processing

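Over the alternatives run, the number of genes meeting the rule, the members called by sex in controls and in KO, and the median KO difference in each sex stayed within 1.5 times their value. The rule found 74 genes with a mean of at least 10 and 66 with 50, 84 with a difference of at least 0.3 and 63 with 0.5, 71 after TMM scaling, and 74 to 85 when 1 library was left out. Sex differences in controls numbered 41 to 46 without 1 library, and those in KO 34 to 44. With age as a covariate, 33 members differed by sex in controls (32 of the 46 and 1 other) and 41 in KO, while calls over all genes in controls went from 7023 to 3746. The median KO difference ran from 0.90 to 0.97 in females and from 0.79 to 0.82 in males without 1 library. Of 680 KO differences of named genes without 1 library, 1 moved by more than 1.5 times, that of Myo1a in males without KO male 1, at 0.45. Sex calls in controls were lost for Prss12 in 19 of 30 alternatives, for Sipa1l3 in 11 and for Lingo4 and Leo1 in 10 each. In KO the call was lost for Rftn2 in 18 of 30 alternatives and for Adra1d in 10. Some other calls were lost in fewer alternatives. Age called 0 members under each alternative, and 40 genes in all with DESeq2 against 0 with limma.

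Replicate numbers were not taken to pair the samples. Deviations of same-numbered control and KO females from their group means correlated at 0.04 to 0.29, with 3 of 5 over 0.1 and 4 of 5 control females closest to their own number, and the labels give numbers 1 and 2 equal ages there. In control and KO males they correlated at -0.12 to -0.01, with 0 of 4 closest to their own number. With the replicate block, 45 members differed by sex in controls and 40 in KO, and the median KO difference was 0.94 in females and 0.82 in males. Low reads limit Raet1e, Lingo4, Etv4 and Dmrta1 most.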

Other observations

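Of the 10 genes that met the measured part of the rule and were left out by name, Cry1, Npas2, Cry2 and Per2 are clock genes. These genes differed between KO and control by 3.03, 3.01, 0.55 and 1.07 on the log2(value + 1) scale in females and by 3.08, 3.0, 0.42 and 0.96 in males, with no test since these values selected them. Crym, the thyroid hormone binding crystallin, differed by 2.22 and 2.16. The other 5 were Gstm7, Col5a3, Lonrf3, Clic5 and Dync1i1. None of these genes belongs to the 73.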
